A study of Mus musculus with 40 samples.

Results

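Collagen processing and modifying enzymes were followed through rib repair in mice by bulk RNAseq of whole pieces of callus tissue. The 10 genes were taken as a named list by their symbols and comprised 3 prolyl 4-hydroxylase subunits (P4ha1, P4ha2, P4ha3), 3 lysyl hydroxylases (Plod1, Plod2, Plod3), the chaperone Serpinh1, the prolyl 3-hydroxylation partner Crtap, the procollagen C-proteinase Bmp1 and its enhancer Pcolce. All 10 were among the 21204 genes of the authors' filtered table, out of 48733 genes in the full table. The mice were wild type and, per the study's methods, female. Immature mice were 7 weeks old and mature mice were older than 10 months. Tissue was labelled as a composite of bone, bone marrow and intercostal muscle and was taken at baseline and on days 0, 2, 5 and 14 after a rib was resected (dpr, days post resection), with no other treatment. Baseline is the state before resection in the study's methods, although the labels give every sample as collected afterwards. Each group held 4 libraries, except mature mice at 5dpr with 3, and 39 libraries of the 40 samples were analysed. Mature replicate 2 at 5dpr was not analysed here. The labels do not say whether libraries came from separate animals, so p-values measure the spread between libraries.

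Fibrillar collagen is made as a procollagen chain in the endoplasmic reticulum, where prolines are hydroxylated so that the triple helix is stable at body temperature and lysines are hydroxylated so that they can later carry sugars and crosslinks. Serpinh1 (also called HSP47) binds the folded helix, and Crtap acts in a complex that modifies a single proline of the chain. After secretion, Bmp1 cuts off the carboxyl propeptide, Pcolce speeds up this cut, and the trimmed molecule joins a fibril. In bone most of the substrate is type I collagen, whose larger share comes from Col1a1, and that transcript was used as the reference for timing.

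The members did not all move with Col1a1. P4ha1, Plod1 and Plod3 rose between 0 and 2dpr at both ages and then showed no further call, while Pcolce had no call between 0 and 2dpr and rose between 2 and 5dpr. P4ha3, Crtap and Bmp1 rose over both intervals at both ages, as did Serpinh1 in mature mice. Col1a1 itself had negative differences that missed the threshold between 0 and 2dpr, and its first rise after resection came between 2 and 5dpr, with a call in mature mice.

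Promoter windows of 300 bases from RefSeq (GRCm38.p6) are shown for the 3 members that rose early and for Pcolce, which rose late, because these carry the contrast in timing. The letters in capitals are matches on either strand to ACGTG or GCGTG, the core of the hypoxia response element, and each sequence is written 5′ to 3′ on the strand of its gene. The reverse-strand letters are CACGT and CACGC, and ACGTG also lies within other known elements, among them the E-box CACGTG. The Pcolce window follows the RefSeq start, which lies inside the gene's GENCODE span.
P4ha1, chr10:59323046-59323345, plus strand: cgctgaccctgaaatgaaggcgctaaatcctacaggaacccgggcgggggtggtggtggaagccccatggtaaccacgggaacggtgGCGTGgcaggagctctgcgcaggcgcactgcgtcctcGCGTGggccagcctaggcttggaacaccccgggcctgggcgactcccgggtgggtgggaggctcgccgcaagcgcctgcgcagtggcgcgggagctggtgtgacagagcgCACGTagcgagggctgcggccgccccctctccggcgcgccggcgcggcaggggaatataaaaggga
Plod1, chr4:147936727-147937026, minus strand: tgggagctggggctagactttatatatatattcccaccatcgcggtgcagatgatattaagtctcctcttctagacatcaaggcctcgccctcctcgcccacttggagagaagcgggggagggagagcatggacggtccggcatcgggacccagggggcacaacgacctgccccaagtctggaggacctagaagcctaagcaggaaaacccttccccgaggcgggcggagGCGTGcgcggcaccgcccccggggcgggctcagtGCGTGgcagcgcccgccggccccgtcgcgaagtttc
Plod3, chr5:136986769-136987068, plus strand: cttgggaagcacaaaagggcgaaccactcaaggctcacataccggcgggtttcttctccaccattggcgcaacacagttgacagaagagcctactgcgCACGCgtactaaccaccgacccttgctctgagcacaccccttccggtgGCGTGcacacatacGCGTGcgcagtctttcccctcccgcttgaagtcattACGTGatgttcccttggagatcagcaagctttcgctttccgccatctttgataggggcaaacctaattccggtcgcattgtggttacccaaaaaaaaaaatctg
Pcolce, chr5:137611355-137611654, minus strand: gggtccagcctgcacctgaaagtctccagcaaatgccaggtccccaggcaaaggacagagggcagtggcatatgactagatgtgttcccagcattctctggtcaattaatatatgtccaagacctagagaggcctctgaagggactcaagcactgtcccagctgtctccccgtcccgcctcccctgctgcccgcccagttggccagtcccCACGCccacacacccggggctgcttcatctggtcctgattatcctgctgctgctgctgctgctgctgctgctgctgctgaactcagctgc
The table held windows for 8 of the 10 members. Plod3 and P4ha2 each had 4 matches, P4ha1 and Crtap had 3, Plod1 had 2, Pcolce and Serpinh1 had 1, and P4ha3 had 0. At least 1 match stood in 7 of these 8 windows and in 43.8% of all 32851 windows of the same length. The member windows had 53.3% to 70.3% G and C, against a median of 52.7% over all windows, so that these counts of letters are a description only. The late Pcolce window and the early Plod1 window both held a match. Plod2 and Bmp1 had no window, and a relation of the matches to timing was not tested.

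Total counts ranged from 6057756 to 21537070 per library, with a median of 9087417. All levels are CPM, counts scaled to a common library total, after TMM scaling, which also adjusts for each library's composition. Tests are edgeR quasi-likelihood tests over all 21204 genes with Benjamini-Hochberg adjustment, and a gene is called at an adjusted p under 0.05. Errors of log2 fold changes are standard errors (SE). Of the libraries, mature 2dpr replicate 3 and immature 0dpr replicate 1 correlated least with their own groups (median r of 0.851 and 0.885, against 0.924 to 0.982 for the other libraries), and immature 0dpr replicate 3 had by far the lowest Col1a1 of its group. Markers of the labelled tissues were present: all 20 skeletal muscle and all 8 osteoblast markers were measured and none was at 0 in any group. In such tissue, fewer cells of a type and less RNA per cell cannot be told apart.

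**Figure D1:**
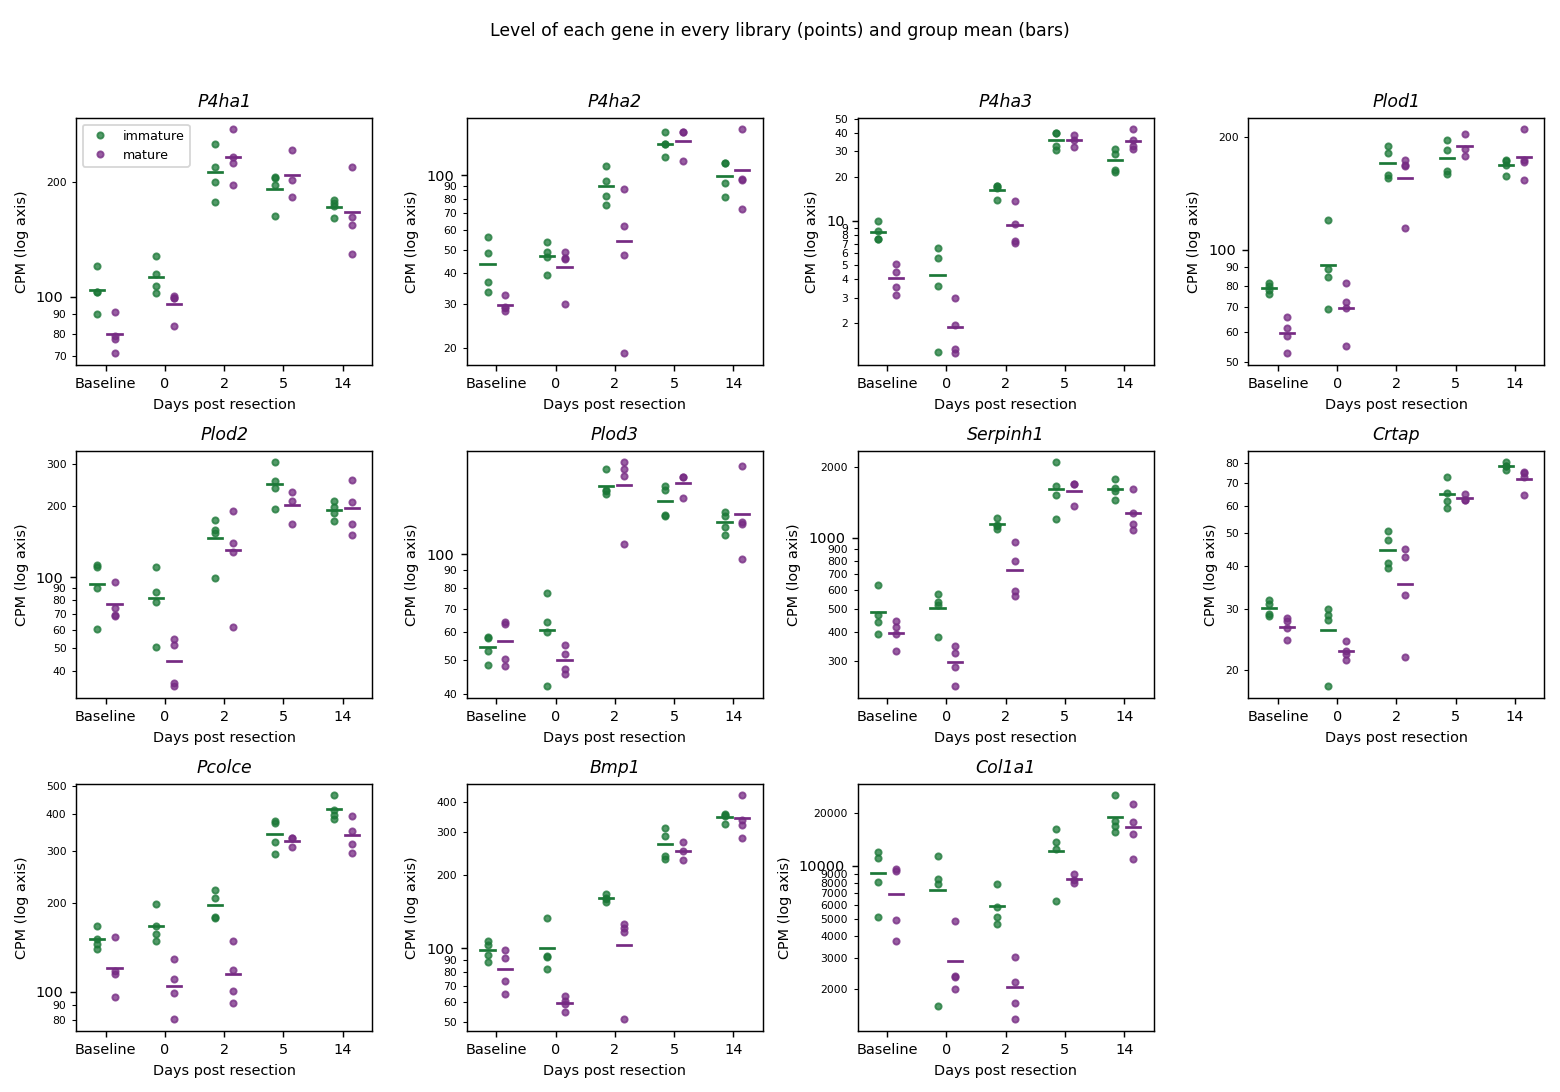
CPM (log axis) of the 10 members and Col1a1 in each library (points) with the group mean (short bars), by stage and age. P4ha1, Plod1 and Plod3 step up at 2dpr and Pcolce steps up at 5dpr. The group mean of Col1a1 is lowest at 2dpr at both ages, though immature 0dpr replicate 3 lies below every immature library at 2dpr.

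The prolyl 4-hydroxylase subunits carry the catalytic site of the enzyme that hydroxylates collagen prolines. P4ha1, the main subunit in most tissues (chromosome 10, 59323296 to 59373304, plus strand, GRCm38), measured 102 to 128 CPM in the 4 immature libraries at 0dpr and 177, 219, 251 and 200 CPM at 2dpr. In mature mice it measured 99.1, 83.6, 99.2 and 100.2 CPM at 0dpr and 275, 224, 233 and 196 CPM at 2dpr. Every library at 2dpr was above every library at 0dpr at both ages. P4ha1 rose by 0.91 ± 0.14 (log2 fold change ± SE, n = 4 against 4, adjusted p 1.07e-06) in immature and 1.28 ± 0.14 (adjusted p 1.04e-09) in mature mice. Its differences from 2 to 5dpr were -0.14 ± 0.13 and -0.15 ± 0.14, with adjusted p of 0.647 and 0.539, and its group means peaked at 2dpr at both ages.

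P4ha3, the least abundant of these subunits (chromosome 7, 100285520 to 100319699, plus strand), had the largest fold changes of the list from 0 to 2dpr. It was lowest at 0dpr, with 6.57, 3.57, 1.27 and 5.56 CPM in immature and 2.98, 1.25, 1.33 and 1.94 CPM in mature mice. At 2dpr it measured 17.4, 17.4, 13.9 and 16.7 CPM in immature and 9.5, 13.6, 7.11 and 7.26 CPM in mature mice. At 5dpr the levels were 32.5, 39.8, 39.8 and 30.3 CPM in immature and 38.6, 32.0 and 35.9 CPM in mature mice. No library overlapped between neighbouring stages from 0 to 5dpr, and both ages reached the same range at 5dpr. The rises were 1.98 ± 0.28 and 2.34 ± 0.31 from 0 to 2dpr (adjusted p 4.05e-07 and 7.72e-08) and 1.12 ± 0.25 and 1.92 ± 0.27 from 2 to 5dpr (adjusted p 0.00338 and 4.84e-06), immature first. P4ha3 was also the only member that fell from baseline to 0dpr in immature mice, by 1.02 ± 0.28 (adjusted p 0.0195), and it fell by 1.16 ± 0.32 in mature mice (adjusted p 0.00829). The immature call was lost without baseline replicate 2 (-0.93, adjusted p 0.0600) or 0dpr replicate 3 (-0.65, adjusted p 0.135), and the mature call without 0dpr replicate 3 (-0.99, adjusted p 0.0521). The 0dpr libraries held 10 to 44 reads of P4ha3, so that its levels there are the least precise of the list.

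P4ha2, the subunit found mainly in cartilage, bone and other matrix-making tissue (chromosome 11, 54100095 to 54131665, plus strand), was called in a different interval at each age, and the ages were not shown to differ. In immature mice it went from 53.8, 46.6, 39.6 and 48.7 CPM at 0dpr to 75.4, 94.3, 108.9 and 82.4 CPM at 2dpr, a rise of 0.94 ± 0.25 (adjusted p 0.00258). At 5dpr the immature libraries held 134, 133, 150 and 118 CPM, all above those of 2dpr. That difference of 0.57 ± 0.25 missed the threshold (adjusted p 0.177). In mature mice it went from 45.6, 30.2, 46.1 and 48.8 CPM to 87.8, 62.0, 19.0 and 47.5 CPM, a difference of 0.34 ± 0.25 (adjusted p 0.270), and reached 114, 149 and 149 CPM only at 5dpr (1.34 ± 0.27 over 2dpr, adjusted p 0.000507). The 19.0 CPM came from mature 2dpr replicate 3, the library that agreed least with its group, and without it the difference from 0 to 2dpr was 0.62 (adjusted p 0.0118). The test of the difference between the ages did not pass for either interval (0.59 ± 0.35, adjusted p 0.535, and -0.78 ± 0.36, adjusted p 0.603, immature minus mature).

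The lysyl hydroxylases modify lysines along the chain, and Plod3 also adds sugar to the modified lysine. Plod3 (chromosome 5, 136987019 to 136996648, plus strand) made the steepest early step among the lysyl hydroxylases of immature mice, from 77.5, 60.2, 42.0 and 64.1 CPM at 0dpr to 149, 152, 175 and 152 CPM at 2dpr. In mature mice it went from 55.1, 46.9, 51.9 and 45.6 CPM to 175, 183, 107 and 167 CPM. The groups did not overlap at either age, and the rises were 1.37 ± 0.16 (adjusted p 1.73e-08) and 1.66 ± 0.17 (adjusted p 2.15e-10). Between 2 and 5dpr the differences were -0.15 ± 0.16 and 0.01 ± 0.17, with adjusted p of 0.707 and 0.976. Exons of Plod3 overlap an exon of Znhit1 on the other strand and Mir702 on the same strand.

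Plod1, which acts on the helical part of the chain (chromosome 4, 147909753 to 147936767, minus strand), followed the same course. It measured 88.9, 119.9, 69.5 and 84.4 CPM at 0dpr and 158, 181, 189 and 155 CPM at 2dpr in immature mice. The corresponding values in mature mice were 81.4, 55.3, 72.2 and 69.6 CPM and 174, 168, 115 and 167 CPM. All libraries at 2dpr again lay above all at 0dpr, with rises of 0.92 ± 0.14 and 1.16 ± 0.14 (adjusted p 1.08e-06 and 9.40e-09). The differences from 2 to 5dpr were 0.04 ± 0.13 in immature and 0.28 ± 0.14 in mature mice (adjusted p 0.929 and 0.207).

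Plod2, the enzyme of the telopeptide lysines that form stable crosslinks (chromosome 9, 92542223 to 92608428, plus strand), measured 110.5, 78.3, 50.7 and 86.9 CPM at 0dpr and 98.9, 153, 175 and 159 CPM at 2dpr in immature mice, where the groups overlapped, and the rise was 0.85 ± 0.25 (adjusted p 0.00573). In mature mice it first fell from baseline to 0dpr, from 69.5, 95.7, 68.7 and 74.3 CPM to 51.6, 54.8, 35.6 and 34.6 CPM (-0.81 ± 0.25, adjusted p 0.0189), and then rose to 139, 128, 190 and 61.6 CPM at 2dpr (1.55 ± 0.26, adjusted p 4.33e-06). The fall was lost without mature baseline replicate 2 (-0.68, adjusted p 0.0826) or mature 0dpr replicate 3 (-0.70, adjusted p 0.0832). Between 2 and 5dpr it differed by 0.76 ± 0.25 in immature and 0.64 ± 0.26 in mature mice, and both missed the threshold (adjusted p 0.0510 and 0.101), though the immature one passed without immature 5dpr replicate 5 (0.86, adjusted p 0.0413) and the mature one without mature 2dpr replicate 3 (0.89, adjusted p 0.0247). Its highest value at 2dpr, 190 CPM, was in mature replicate 3. An exon of Plod2 overlaps an exon of Gm38391 on the other strand.

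Serpinh1, the collagen chaperone (chromosome 7, 99345376 to 99353239, minus strand), was the most abundant member. In immature mice it measured 580, 535, 379 and 521 CPM at 0dpr and 1212, 1132, 1093 and 1121 CPM at 2dpr. The mature libraries measured 324, 235, 283 and 349 CPM at 0dpr, 796, 964, 593 and 567 CPM at 2dpr and 1697, 1699 and 1365 CPM at 5dpr. The groups at 0 and 2dpr did not overlap at either age. It rose from 0 to 2dpr by 1.18 ± 0.18 and 1.30 ± 0.18 (adjusted p 1.66e-06 and 2.44e-07). A further rise of 1.12 ± 0.19 came in mature mice between 2 and 5dpr (adjusted p 8.03e-05), while the immature difference of 0.51 ± 0.18 missed the threshold (adjusted p 0.0762). It passed without immature 5dpr replicate 2 (0.62, adjusted p 0.0356). The test of the difference between the ages gave -0.61 ± 0.26 (adjusted p 0.576).

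Crtap, the partner of prolyl 3-hydroxylase (chromosome 9, 114375134 to 114390675, minus strand), had its highest mean at 14dpr. In immature mice it measured 29.0, 27.9, 17.9 and 30.0 CPM at 0dpr, 47.5, 40.9, 39.4 and 50.5 CPM at 2dpr and 61.9, 65.5, 72.7 and 59.2 CPM at 5dpr. The mature libraries held 24.3, 21.3, 22.3 and 22.6 CPM, then 42.5, 45.0, 21.8 and 32.9 CPM, then 64.9, 62.5 and 62.1 CPM. The immature stages did not overlap, whereas mature 2dpr replicate 3 lay within the range of 0dpr. The rises from 0 to 2dpr were 0.77 ± 0.15 and 0.65 ± 0.15 (adjusted p 5.12e-05 and 0.000378), and those from 2 to 5dpr were 0.54 ± 0.14 and 0.83 ± 0.15 (adjusted p 0.0138 and 0.000236). The immature rise from 2 to 5dpr missed the threshold without 2dpr replicate 2 (adjusted p 0.0555), 2dpr replicate 3 (adjusted p 0.0652) or 5dpr replicate 4 (adjusted p 0.0650).

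Pcolce and Bmp1 act outside the cell. Pcolce, the enhancer of the proteinase (chromosome 5, 137605103 to 137613784, minus strand), measured 167, 157, 148 and 198.5 CPM at 0dpr and 221, 179, 178 and 208 CPM at 2dpr in immature mice, and 129, 80.5, 110.4 and 98.9 CPM and 118, 148, 91.7 and 100.2 CPM in mature mice. These groups overlapped at both ages, and the differences were 0.23 ± 0.15 and 0.13 ± 0.15 (adjusted p 0.203 and 0.495). At 5dpr it reached 292, 372.5, 379 and 322 CPM in immature and 332, 331 and 309 CPM in mature mice, above every library at 2dpr. The rises from 2dpr were 0.80 ± 0.15 (adjusted p 0.000412) and 1.5 ± 0.16 (adjusted p 2.14e-08). Exons of Pcolce overlap exons of Fbxo24 on the same strand and of Gm36266 on the other.

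Bmp1, the procollagen C-proteinase (chromosome 14, 70474558 to 70520234, minus strand), rose over both intervals and was highest at 14dpr. In immature mice it measured 133, 92.3, 82.4 and 93.2 CPM at 0dpr, 159, 155, 167 and 161 CPM at 2dpr and 233, 289.5, 312 and 239 CPM at 5dpr. Mature levels were 63.7, 54.9, 60.5 and 58.9 CPM, then 116, 121, 51.1 and 125 CPM, then 231, 274 and 252 CPM. Apart from mature 2dpr replicate 3, which lay below the libraries of 0dpr, each stage stood above the one before. The rises were 0.68 ± 0.18 and 0.80 ± 0.18 from 0 to 2dpr (adjusted p 0.00206 and 0.000368) and 0.74 ± 0.18 and 1.29 ± 0.19 from 2 to 5dpr (adjusted p 0.00589 and 1.03e-05).

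Col1a1, the reference (chromosome 11, 94936224 to 94953042, plus strand), measured 11288, 8377, 1594 and 7903 CPM at 0dpr and 5806, 4688, 5110 and 7901 CPM at 2dpr in immature mice. The mature libraries held 4844, 2363, 2332 and 2012 CPM at 0dpr and 2187, 3036, 1347 and 1669 CPM at 2dpr. At 5dpr the levels were 6341, 12427, 13704 and 16148 CPM in immature and 8344, 8964 and 8009 CPM in mature mice. The differences from 0 to 2dpr were -0.31 ± 0.39 and -0.49 ± 0.39 (adjusted p 0.545 and 0.319), and those from 2 to 5dpr were 1.05 ± 0.39 (adjusted p 0.102) and 2.03 ± 0.42 (adjusted p 0.000928). In mature mice Col1a1 had fallen from baseline to 0dpr by 1.26 ± 0.40 (adjusted p 0.0190), a call that was lost without mature baseline replicate 1 or 2 or mature 0dpr replicate 3 (adjusted p 0.0727, 0.0826 and 0.0728).

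Tissue markers also differed between baseline and 0dpr. In mature mice 19 of 20 muscle markers were called higher (median 1.2), and 6 of 8 osteoblast markers (median -1.26) and 7 of 8 macrophage markers (median -0.75) lower. In immature mice 2 of 20 muscle markers were called higher and 1 of 8 osteoblast markers lower. The part of these markers in the falls of P4ha3, Plod2 and Col1a1 was not tested.

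Counted over the list, 1 of 10 members fell from baseline to 0dpr in immature mice (P4ha3), where 4.66% of all genes were called lower, and 2 of 10 fell in mature mice (P4ha3, Plod2), where 10.6% were. From 0 to 2dpr, 9 of 10 rose in immature and 8 of 10 in mature mice, against 21.8% and 22.7% of all genes called higher, and 0 fell. The median difference of the members was 0.91 in immature and 1.22 in mature mice, against -0.04 and -0.05 for all genes. From 2 to 5dpr, 4 of 10 rose in immature mice (P4ha3, Crtap, Pcolce, Bmp1) and 6 of 10 in mature mice (those 4 with P4ha2 and Serpinh1), against 4.37% and 8.16% of all genes. From 5 to 14dpr, edgeR called 0 of 10 at either age, with 3.18% and 4.18% of all genes called in either direction. At 14dpr all 10 were above baseline at both ages, by 0.73 for P4ha1 to 1.82 for Bmp1 in immature and by 1.06 for P4ha1 to 3.11 for P4ha3 in mature mice, against 16.4% and 17.1% of all genes called higher. Col1a1 was above baseline by 1.06 ± 0.39 and 1.26 ± 0.40 (adjusted p 0.0376 and 0.0121). The immature call of Col1a1 was lost without baseline replicate 2 or 3 or 14dpr replicate 2 or 4 (adjusted p 0.0550 to 0.130), and the mature one without baseline replicate 3 (adjusted p 0.0566). Over this comparison 20 of 20 muscle markers were called lower and 7 of 8 stroma markers higher in immature mice. In mature mice 17 of 20 were lower and 8 of 8 higher. All 7 measured chondrocyte markers were higher at both ages (median 5.37 and 4.38), as were 8 and 7 of 8 macrophage markers and 4 of 5 endothelial markers. All 4 erythroid and all 4 adipocyte markers were lower at both ages, as were 3 and 4 of 4 B cell markers. Of 8 osteoblast markers 3 were higher in immature and 2 lower in mature mice. With a muscle marker score as a covariate, fewer members passed in immature mice, and Col1a1 there turned slightly negative. The part of the stroma, chondrocyte and other markers was not tested.

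**Figure D2:**
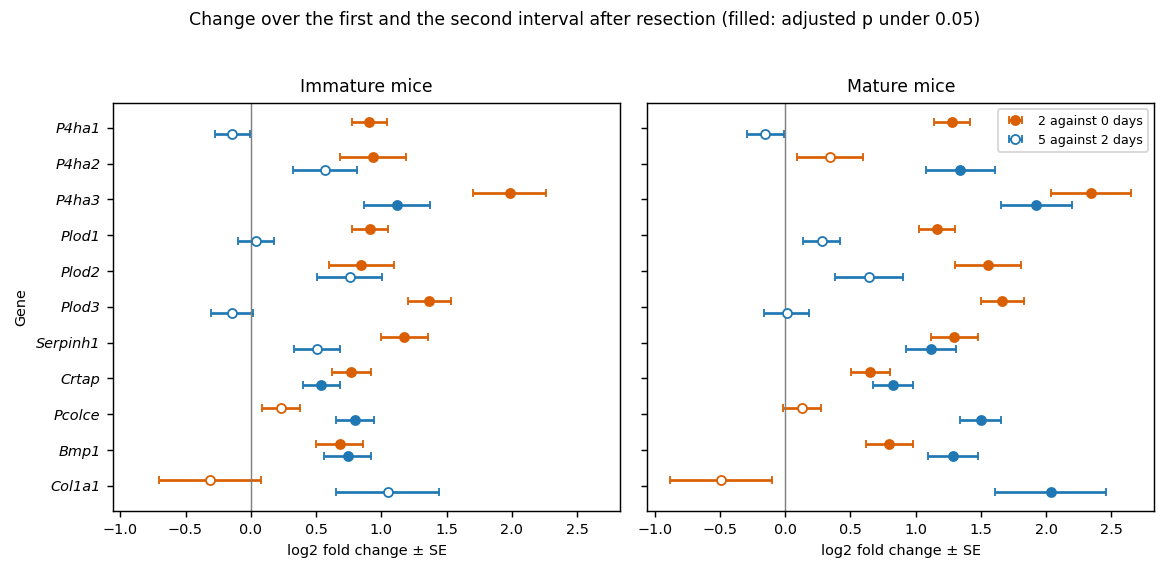
log2 fold changes with SE from 0 to 2dpr and from 2 to 5dpr for the members and Col1a1 at each age (n = 4 libraries a group, 3 for mature mice at 5dpr); filled points passed an adjusted p of 0.05. P4ha1, Plod1 and Plod3 lie right of 0 in the first interval and near 0 in the second, and Pcolce and Col1a1 show the reverse order.

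Tissue composition moved with the first interval. Summed CPM of the 20 muscle markers was 128400 to 237600 in immature libraries at 0dpr and 19570 to 31720 at 2dpr, and 133600 to 266200 and 16070 to 31670 in mature ones. Summed CPM of the 8 macrophage markers was 396.5 to 607.6 and 2678 to 3512 in immature, and 419.8 to 534.1 and 3135 to 3622 in mature mice. Osteoblast markers were called lower for 3 of 8 in immature (median -0.89) and 7 of 8 in mature mice (median -1.88). Their summed CPM was 218.4 to 842.1 at 0dpr and 136.6 to 405.7 at 2dpr in immature libraries, and 286.4 to 419.8 and 39.92 to 289.3 in mature ones. All 4 erythroid, all 4 B cell and all 4 adipocyte markers were called lower at both ages. With the muscle score (mean log2 CPM of those 20 markers) as a covariate, 0 of 10 members in immature and 2 of 10 in mature mice (P4ha1, adjusted p 0.0264, and Plod1, adjusted p 0.0428) passed from 0 to 2dpr, against 3.85% and 3.33% of all genes called higher in that fit. The differences of P4ha1 then were 0.86 and 1.22 and those of Plod1 were 0.89 and 1.13. These were close to the values without the covariate but passed only in mature mice. Plod3, which also rose early, passed at neither age in this fit. Plod2 turned to -0.07 in immature mice, and Bmp1 dropped to 0.19 and 0.18. Since no library at 2dpr reached the muscle score of any library at 0dpr, stage and muscle content cannot be told apart over this interval. Between 2 and 5dpr the same covariate left every call of a member in place at both ages, and summed CPM of the 8 fibroblast and stroma markers went from 2501 to 3186 up to 7174 to 10960 in immature mice and from 1307 to 2742 up to 6913 to 8234 in mature mice. The part of the osteoblast, stroma, macrophage or other markers in these results, and in the ratios to Col1a1, was not tested.

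**Figure D3:**
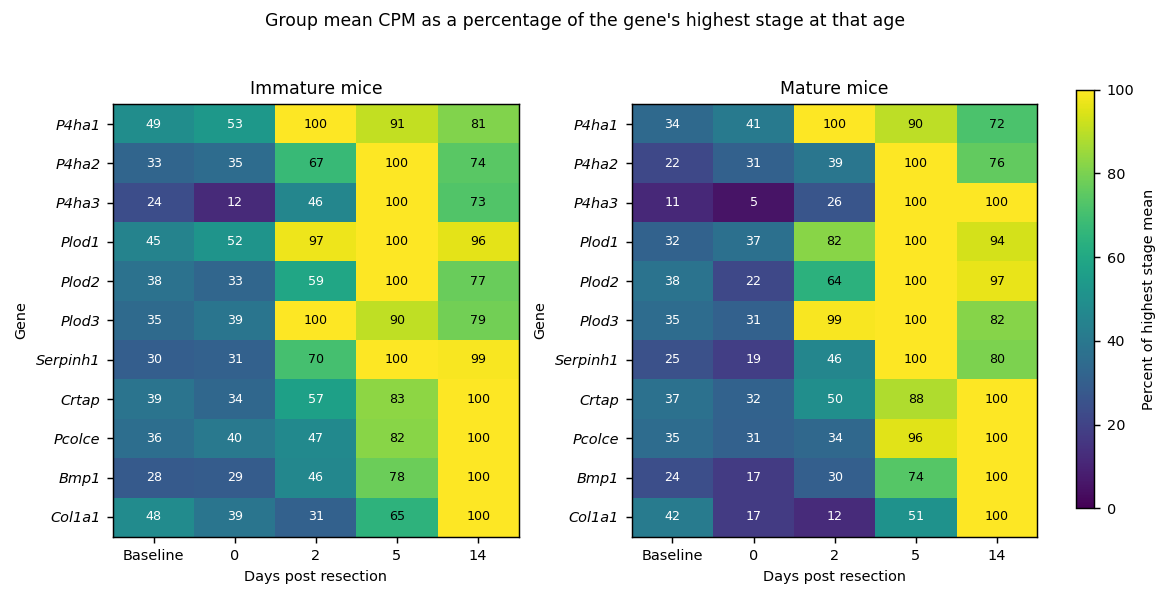
Group mean CPM of each gene as a percentage of its highest stage mean at the same age, with immature mice on the left and mature mice on the right. At 2dpr Plod3 stands at 100% and 99.0% and P4ha1 at 100% at both ages, while Col1a1 stands at 31.2% and 12.4%.

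Timing was then expressed as a share of each gene's own highest stage mean. At 2dpr, P4ha1 was at its highest stage at both ages, Plod3 at 100% and 99.0%, and Plod1 at 97.3% and 82.4% (immature and mature). Pcolce stood at 47.4% and 33.8%, Bmp1 at 46.4% and 30.2%, and Col1a1 at 31.2% and 12.4%. Col1a1, Crtap, Pcolce and Bmp1 had their highest mean at 14dpr at both ages. P4ha2, P4ha3, Plod1, Plod2 and Serpinh1 had theirs at 5dpr at both ages. These shares are a description and carry no test.

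The ratio of each member to Col1a1 within a library tested whether the member moved by more than Col1a1. It was taken as log2 CPM of the member minus log2 CPM of Col1a1. Over 10 members, 2 intervals and both ages, 40 exact two-sided permutation tests were run with no adjustment, and 0.0286 is the smallest p that 4 against 4 or 4 against 3 libraries can give. In mature mice Plod3 relative to Col1a1 went from -6.45, -5.65, -5.49 and -5.46 at 0dpr to -3.64, -4.05, -3.65 and -3.32 at 2dpr and back to -5.64, -5.75 and -5.78 at 5dpr. Every 2dpr library lay above every library of 0 and 5dpr, with differences of 2.10 and -2.06 (exact permutation p 0.0286 each). In mature mice 8 members gained on Col1a1 from 0 to 2dpr at this p, all but P4ha2 (0.63, exact p 0.200) and Pcolce (0.59, exact p 0.0571). Col1a1 is the denominator for every gene, and 14.4% of all genes gained on it at this p. It is not the only fibrillar collagen, and Col3a1 and Col5a2 rose in this interval at both ages. With Col1a1, Col1a2 and Col3a1 as the reference, the differences turned negative for Pcolce at both ages and for P4ha2 in mature mice. From 2 to 5dpr, 6 members lost against Col1a1 at this p: P4ha1, Plod1, Plod3, Serpinh1, Crtap and Pcolce. Of all genes 56% lost against Col1a1 at this p in that interval, so the members' share was near that of all genes. The largest loss was that of P4ha1, at -2.25 (exact permutation p 0.0286).

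In immature mice only P4ha3 gained on Col1a1 from 0 to 2dpr at this p (2.13, exact permutation p 0.0286), against 5.76% of all genes. None of the 10 reached it from 2 to 5dpr, where 21.9% of all genes lost against Col1a1 at this p. The count from 0 to 2dpr rested on 1 library. Immature 0dpr replicate 3, with 1594 CPM of Col1a1, the highest muscle score of its group (12.78) and the lowest osteoblast score (3.77), had ratios far above its group, such as -5.24 for Plod3 against -7.18, -7.12 and -6.94 in the other libraries. Without it, 9 of 10 members gained on Col1a1 from 0 to 2dpr at the smallest p possible, against 23.9% of all genes. The ratio of P4ha3 differed by 0.11 in immature and -0.15 in mature mice from 2 to 5dpr. Without immature 5dpr replicate 2, 3 members (P4ha1, Plod3, Crtap) lost against Col1a1 in the second interval, against 51.9% of all genes.

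**Figure D4:**
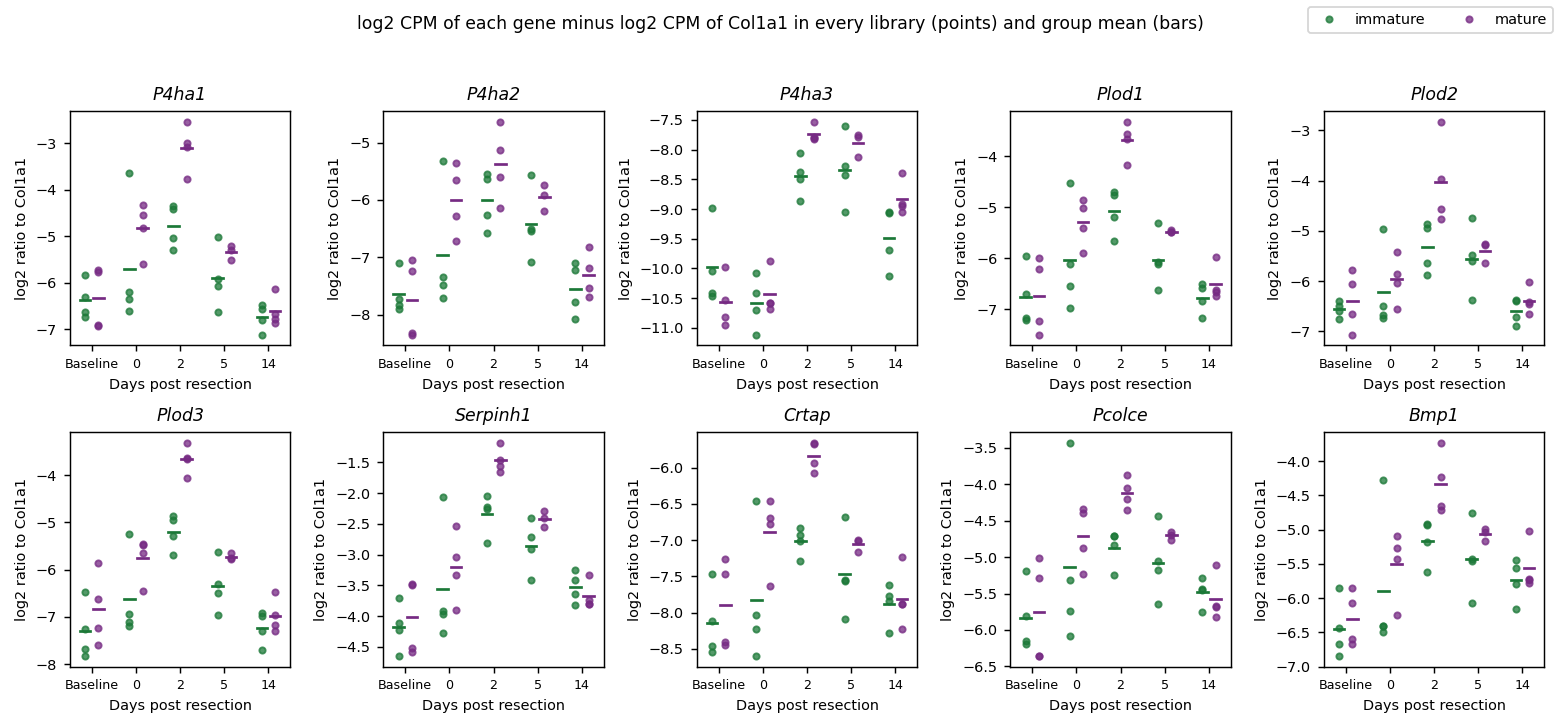
log2 ratio of each member to Col1a1 in each library (points) with the group mean (bars), by stage and age. In mature mice the ratios of P4ha1, Plod1 and Plod3 peak at 2dpr, and 1 immature library at 0dpr sits far above its group for most members.

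Immature and mature mice were compared at each stage to ask whether the enzymes differ with age. At baseline 0 of 10 members were called, with 0.585% of all genes called, although edgeR gave an unadjusted p under 0.05 for 5 members (P4ha1, P4ha2, P4ha3, Plod1, Pcolce) and for 11.7% of all genes. The largest of these differences was that of P4ha3, with 9.94, 7.52, 8.51 and 7.56 CPM in immature and 4.51, 5.11, 3.55 and 3.14 CPM in mature mice (1.03 ± 0.28, adjusted p 0.0769). DESeq2 called P4ha3 at baseline (adjusted p 0.0153), with 1.59% of all genes called.

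At 0dpr 3 of 10 members were higher in immature mice (Serpinh1, Pcolce, Bmp1), against 0.571% of all genes. Serpinh1 differed by 0.76 ± 0.18 (adjusted p 0.0294), Pcolce by 0.68 ± 0.15 (adjusted p 0.0143) and Bmp1 by 0.75 ± 0.18 (adjusted p 0.0338), and for each of the 3 the lowest immature library was above the highest mature one. The count ranged from 0 to 5 when single libraries were left out: it was 0 without mature replicate 2, 1 without mature replicate 3 or immature replicate 1, and 5 without immature replicate 3. Col1a1 differed by 1.34 ± 0.40 (adjusted p 0.104), and by 1.67 (adjusted p 0.00925) without immature replicate 3 or 1.71 (adjusted p 0.0497) without mature replicate 1. Of 7 fibrillar collagen genes, Col1a1 among them, 5 were called higher in immature mice (median 1.42), against 0.571% of all genes. DESeq2 called 5 members higher at 0dpr, against 1.19% of all genes. The fibroblast and stroma score was the mean log2 CPM of its 8 markers. At 0dpr it was 7.58 to 7.83 in immature and 6.94 to 7.22 in mature libraries, with no overlap. Of those markers 2 of 8 were called higher in immature mice (median 0.33). The stroma score did not overlap at baseline either (7.59 to 7.91 and 6.82 to 7.29). At 0dpr the chondrocyte score, of 7 measured markers, was 1.07 to 2.39 in immature and -0.26 to 0.89 in mature libraries, also without overlap. No chondrocyte marker was called. The part of these markers in the differences of the members was not tested.

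At 2dpr 1 of 10 was higher in immature mice, against 0.457% of all genes. This was Pcolce, at 178 to 221 CPM in immature and 91.7 to 148 CPM in mature libraries (0.78 ± 0.15, adjusted p 0.00697). Serpinh1 (0.64 ± 0.18), Bmp1 (0.63 ± 0.18) and P4ha3 (0.80 ± 0.26) missed the threshold, with adjusted p of 0.0804, 0.0858 and 0.142. Their libraries did not overlap between the ages either, but the share of all genes without overlap was not counted. Without mature 2dpr replicate 2 the count was 3 (Pcolce, Serpinh1, P4ha3), without mature replicate 1 it was 2 (Pcolce, P4ha2), and with DESeq2 it was 4, against 1.27% of all genes. The early members differed little at this stage, by -0.13 ± 0.13 for P4ha1, 0.13 ± 0.13 for Plod1 and -0.01 ± 0.16 for Plod3. Col1a1 was at 4688 to 7901 CPM in immature and 1347 to 3036 CPM in mature mice, a difference of 1.51 ± 0.40 that missed the threshold (adjusted p 0.0610). Of the 7 fibrillar collagen genes 2 were called higher in immature mice (median 1.02), against 0.457% of all genes. The stroma score was 7.45 to 7.70 in immature and 6.65 to 7.37 in mature libraries, with no overlap. The adipocyte score did not overlap either (5.75 to 6.25 and 5.11 to 5.45). The part of these markers was not tested.

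At 5dpr 0 of 10 members were called, with 0% of all genes called, and at 14dpr 0 of 10 with 0.00943%. At 5dpr the 10 differences lay between -0.17 (Plod3) and 0.29 (Plod2), and at 14dpr between -0.45 (P4ha3) and 0.33 (Serpinh1). With edgeR, 0 members had an unadjusted p under 0.05 at 5dpr or at 14dpr, and DESeq2 also called 0. The tests of whether a step differed between ages called 0 of 10 members for all 4 steps, with 0.0141%, 0.0613%, 0% and 0% of all genes called. The smallest unadjusted p was that of Pcolce from 2 to 5dpr, where the immature rise was smaller by 0.70 ± 0.21 (unadjusted p 0.00234, adjusted p 0.437), and 5 members had an unadjusted p under 0.05 in that step (P4ha2, P4ha3, Serpinh1, Pcolce, Bmp1), as did 8.09% of all genes.

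**Figure D5:**
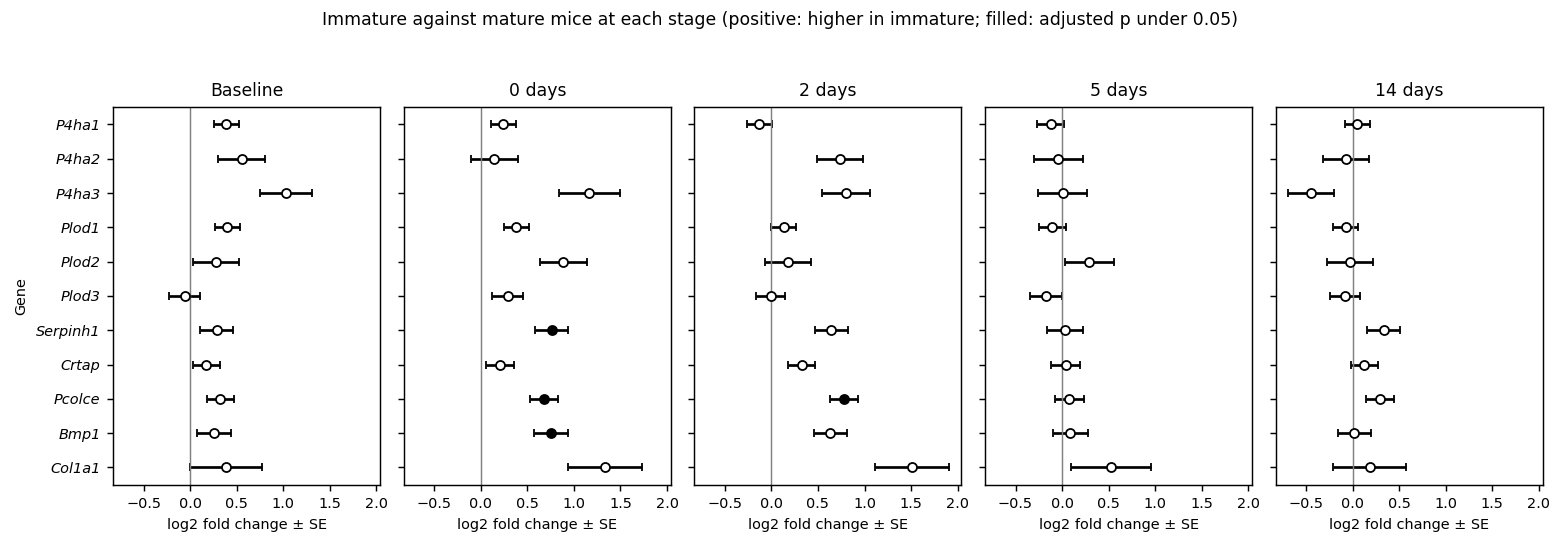
log2 fold changes with SE of immature against mature mice at each of the 5 stages for the members and Col1a1; positive values are higher in immature mice and filled points passed an adjusted p of 0.05. Serpinh1, Pcolce and Bmp1 are filled at 0dpr and Pcolce at 2dpr, and the points gather around 0 at 5dpr.

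Per length of exon sequence, Serpinh1 was the most abundant member in every group. Its mean was 198 CPM per kilobase in immature and 162 CPM per kilobase in mature mice at baseline and 662 and 650 at 5dpr. Pcolce came next at baseline, with means of 39.3 and 31.4 CPM per kilobase, and P4ha1 followed with 25.3 and 19.3. At 2dpr P4ha1 (51.5) and Pcolce (51.4) were level in immature mice, whereas in mature mice P4ha1 (56.4) stood above Plod3 (35.0) and Pcolce (30.0). P4ha3 was lowest in every group, at 0.598 to 11.4 CPM per kilobase. Col1a1 had a higher mean than every member in every group, from 314 to 2867 CPM per kilobase. It was only slightly above Serpinh1 in mature mice at 2dpr, at 314 against 299.

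The other genes of the pathway, a list of 26 of which 24 were measured, included the partner subunit of the prolyl 4-hydroxylases P4hb, prolyl 3-hydroxylases, peptidyl-prolyl isomerases, collagen galactosyltransferases, N-proteinases and factors of the secretory path. From 0 to 2dpr 13 were called higher and 3 lower in the immature group, against 21.8% and 22.2% of all genes. In the mature group 14 were higher and 1 lower, against 22.7% and 24.9%. The largest rises were those of Adamts14, an N-proteinase (1.99 ± 0.29 and 1.88 ± 0.30), and Fkbp10, an isomerase that acts with lysyl hydroxylase 2 (1.64 ± 0.18 and 1.90 ± 0.18). The chaperones Ppib (1.32 ± 0.12) in immature and Pdia3 (1.76 ± 0.17) and Hspa5 (1.5 ± 0.16) in mature mice followed. Colgalt2, a galactosyltransferase, fell by 1.80 ± 0.27 and 1.51 ± 0.26, and Tll2, a proteinase related to Bmp1, fell by 1.73 ± 0.66 in immature mice. Over the next interval 7 were called higher and 1 lower in immature mice, against 4.37% and 3.68% of all genes. In mature mice 10 were higher and 0 lower, against 8.16% and 6.38%. The rise of P3h3, a prolyl 3-hydroxylase, was among the largest at both ages (1.12 ± 0.21 and 1.61 ± 0.23). In the same interval Colgalt2 rose in immature mice (1.20 ± 0.26), and P3h4 (1.56 ± 0.23), Adamts2 (1.53 ± 0.17) and Fkbp7 (1.44 ± 0.17) rose in mature mice. By 14dpr 19 were above and 2 below baseline in immature mice, against 16.4% and 15.1% of all genes. In mature mice 21 were above and 1 below, against 17.1% and 16.4%. The median of the list from 0 to 2dpr was 0.57 and 0.77.

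Between the ages, 4 of these 24 genes were higher in immature mice at 0dpr (Fkbp7, Adamts2, Fkbp10, Sec24d), against 0.571% of all genes. At 2dpr 2 were higher (Fkbp7, Adamts2), against 0.457%. Adamts2, the main procollagen N-proteinase, differed by 0.91 ± 0.16 and 0.76 ± 0.16 at these stages, beside the differences of Pcolce above.

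Among 7 fibrillar collagen genes, Col1a1 included, not all transcripts shared the timing of Col1a1. From 0 to 2dpr 4 of the 7 had no call at each age, and the median over the 7 was 0.08 in immature and -0.27 in mature mice. Col3a1, which encodes the collagen of early repair tissue, rose from 0 to 2dpr by 1.06 ± 0.22 in immature and 2.35 ± 0.22 in mature mice, and Col5a2 rose by 0.67 ± 0.21 and 1.65 ± 0.21. Over the 7 genes, 2 were called higher and 1 lower in immature libraries in this interval, against 21.8% and 22.2% of all genes. In mature ones 3 were higher and 0 lower, against 22.7% and 24.9%. The next interval called 5 and 6 of the 7 higher, against 4.37% and 8.16% of all genes.

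P4ha1, P4ha2 and Plod2 are known targets of the oxygen-sensing factor HIF, and 15 other known targets were read beside them. From 0 to 2dpr 3 of the 15 were called higher and 7 lower in the immature group, against 21.8% and 22.2% of all genes. In the mature group 5 were called higher and 5 lower, against 22.7% and 24.9%, while P4ha1 and Plod2 rose at both ages. Those that rose at both ages were Ero1l, an oxidase of the endoplasmic reticulum (1.28 ± 0.23 and 2.13 ± 0.23), Slc2a1, a glucose carrier (1.28 ± 0.23 and 1.82 ± 0.23), and Ankrd37 (1.53 ± 0.45 and 1.76 ± 0.45). Vegfa, the vessel growth factor, fell by 1.63 ± 0.23 and 1.31 ± 0.23. Between 2 and 5dpr 0 rose, and 3 fell in immature and 6 in mature mice, against 3.68% and 6.38% of all genes called lower.

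Across all 39 libraries, which share stages, ages and depth, the gene outside the list whose log2 CPM followed each member most closely was found among genes with a mean of at least 1 CPM. These correlations are a description. Serpinh1 was closest to Kdelr2 (r = 0.980), Bmp1 to C1qtnf6 (0.977), Plod3 to B4galt5 (0.976), P4ha3 to Cd276 (0.97) and Pcolce to Col6a2 (0.967). Crtap was closest to Rcn3 (0.965), P4ha1 to Capn2 (0.962), Plod1 to Fscn1 (0.961), Plod2 to Col8a1 (0.958) and P4ha2 to Tro (0.929). The correlation with Col1a1 itself ran from 0.0795 for P4ha1, 0.247 for Plod3 and 0.369 for Plod1 to 0.714 for Crtap, 0.754 for Bmp1 and 0.797 for Pcolce. Within the list, Crtap and Bmp1 were most alike (r = 0.968) and P4ha1 and Pcolce least (r = 0.513).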

How the data were processed

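Bulk RNAseq libraries were made with a stranded kit from total RNA and sequenced as pairs of 150 bases, on separate runs that the labels do not assign to libraries. Per the submitters' processing notes and the paper, the authors mapped reads to GRCm38 with STAR 2.5.2a and counted them per gene. Whole, unscaled counts per gene were deposited, and the deposited normalized signal equals CPM with TMM factors (largest relative difference 5e-15) and was used for that check and for gene symbols. The filter rule of the filtered table and the strand setting of the counting are not given in the sources used here.

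Counts of the filtered table were fitted with edgeR 4.0.16 in R 4.3.3 (limma 3.58.1), as quasi-likelihood models with TMM scaling, 1 coefficient for each of 10 groups and 39 libraries, Benjamini-Hochberg adjustment over 21204 genes and a threshold of 0.05. SE was the absolute log2 fold change divided by the root of the F statistic. Log2 CPM used a prior count of 2. Ratios to Col1a1 were tested by exact two-sided permutation. The paper's test, DESeq2 (here 1.42.0), was an alternative beside RLE size factors, other gene filters, only the libraries compared, a replicate block, a muscle score covariate, a threshold of 0.01 and each library left out. Members and lists were chosen with earlier results of these data known. The genes named are all members, Col1a1, up to 5 pathway genes with the largest called change per comparison, the closest gene to each member, and, chosen after their values were seen, Col3a1, Col5a2 and the named oxygen-response genes.

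Exon lengths and positions are from GENCODE M21. Promoter windows are RefSeq sequences. On simulated counts for 2dpr against 0dpr in immature mice (21204 genes, 200 changed), edgeR called 59% of genes changed 2-fold and 91% of genes changed 4-fold, with 9 false calls among 159. Libraries of a group differed by at least 6.99 times the counting variance, so none was counted as a duplicate. Same-numbered libraries deviated together only between the ages at 0dpr (r 0.178 to 0.296 over 4 pairs), where a replicate block left the 3 member calls in place. Depth sets the precision of low genes, and no counting intervals are given, since replicate spread is the error used.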

Additional observations from a re-analysis of the deposited data

Results flagged for a closer look

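Among 99 sets of 4 libraries (10 members and Col1a1 in the groups of 4), a library stood far from the others of its group in 6, where chance gives about 1 in 20. Of these, 2 were the lowest values of mature 2dpr replicate 3, at 51.1 CPM of Bmp1 and 114.6 CPM of Plod1, against 116.3 to 125.4 and 167.2 to 173.6 CPM in the other libraries. Another 2 were the lowest values of mature 0dpr replicate 2, at 83.6 CPM of P4ha1 and 30.2 CPM of P4ha2, against 99.1 to 100.2 and 45.6 to 48.8 CPM. Mature 0dpr replicate 1 held 4844 CPM of Col1a1, against 2012 to 2363 CPM. Immature 2dpr replicate 3 held 175 CPM of Plod3, against 148.9 to 152.2 CPM. Mature mice at 5dpr, with 3 libraries, were not examined this way.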

How the results depend on the processing

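Leaving out single libraries changed the number of members called to 0 to 1 from baseline to 0dpr in immature mice (0 without baseline replicate 2 or 0dpr replicate 3) and 0 to 3 in mature mice (1 without baseline replicate 2, 0 without 0dpr replicate 3), and to 0 to 5 between the ages at 0dpr and 1 to 3 at 2dpr. The counts of ratios changed to 1 to 9 and 0 to 3 in immature mice over the first and second interval. With the muscle score as a covariate the counts were 0 (immature) and 0 (mature) from baseline to 0dpr, 0 and 2 from 0 to 2dpr, 5 at 14dpr against baseline in immature mice, and 1 and 4 between the ages at baseline and 2dpr. With only the libraries compared they were 0 and 4 from baseline to 0dpr, 2 from 5 to 14dpr in immature mice, and 1, 0 and 0 between the ages at baseline, 0 and 2dpr. DESeq2 gave 1, 5 and 4 at those 3 stages, against 1.59%, 1.19% and 1.27% of all genes. An adjusted p under 0.01 gave 0 and 1 from baseline to 0dpr and 0 between the ages at 0dpr, and leaving out the 3 libraries that stood apart, chosen after seeing the data, gave 0 from baseline to 0dpr in immature mice. With 3 collagens as the reference 2 and 4 ratios passed in immature mice over the 2 intervals. Shares of all genes are not set beside the other counts here, so those counts show only how far each fit moved the number of members. The causes were not tested.

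Signs turned only for values near 0 or under the covariate and the other reference. With the covariate, Plod2 from 0 to 2dpr in immature mice was -0.073, Col1a1 at 14dpr against baseline in immature mice -0.075, and Plod3 between the ages at 2dpr 0.0923. Plod3 from 2 to 5dpr in mature mice was -0.0061 with RLE size factors, -0.014 with all genes, -0.00636 with DESeq2 and -0.131 without the 3 libraries. With 3 collagens, the ratio of Pcolce from 0 to 2dpr was -0.0547 in immature and -0.38 in mature mice, that of P4ha2 -0.339 in mature mice, and that of P4ha3 from 2 to 5dpr 0.00109 in mature mice. Without single libraries the ranges were -0.619 to 0.0579 for Col1a1 from baseline to 0dpr in immature mice, -0.0182 to 0.0922 for Plod1 from 2 to 5dpr in immature mice, -0.0186 to 0.221 for Pcolce from 0 to 2dpr in mature mice, -0.134 to 0.0911 for Plod3 from 2 to 5dpr in mature mice, -0.0555 to 0.422 for Plod2 between the ages at 2dpr, -0.156 to 0.0685 for Plod3 there, -0.0499 to 0.834 for the ratio of Pcolce from 0 to 2dpr in immature mice, -0.135 to 0.348 for the ratio of P4ha3 from 2 to 5dpr in immature mice and -0.499 to 0.049 for that of Plod2.

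The replicate block changed no count of members called. Same-numbered libraries deviated together only between the ages at 0dpr, so elsewhere they share only a number; with the block Plod3 from 2 to 5dpr in mature mice was -0.000723, and Col1a1 at 14dpr against baseline in immature mice was 1.08 (adjusted p 0.0571).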
